A study of Oryctolagus cuniculus with 16 samples.

Results

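*EPHA6* and 9 other genes of the Eph receptor and ephrin family were compared between the femoral heads of 5 Perthes disease rabbits and those of 3 control rabbits. The 10 genes were 5 class A receptors (*EPHA2*, *EPHA3*, *EPHA4*, *EPHA6* and *EPHA7*), 2 class B receptors (*EPHB2* and *EPHB4*), 1 class A ligand (*EFNA1*) and 2 class B ligands (*EFNB1* and *EFNB2*), of 20255 genes listed. They were taken by gene symbol, and they were chosen by their read counts in the same Perthes and control libraries that are described here. Their levels and fold changes are therefore given as a description, without p-values, and where the fit over all genes called a member, that too is only a description. Another 11 Eph and ephrin genes listed were examined alongside them, and these were tested.

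The Perthes group held 5 wild-type rabbits, numbered 1 to 5, whose femoral neck was ligated with a non-absorbable suture and whose ligamentum teres was cut at 8 weeks of age, so as to block blood flow to the epiphysis. The control group held 3 wild-type rabbits, numbered 1 to 3. The time from surgery to sampling, and whether controls had a sham operation, are not given in the sources used here. The sample labels enter the disease as a genotype, although it was made by surgery, and 1 total RNA library was made from the femoral head of each rabbit.

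Eph receptors are transmembrane tyrosine kinases, and their ligands, the ephrins, are themselves held on the cell surface. Ephrin-A proteins are anchored by a lipid and ephrin-B proteins span the membrane, so a contact between cells can send a forward signal through the receptor and a reverse signal through the ligand. The family is known for guiding axons, for separating arteries (ephrin-B2) from veins (EphB4), and, in bone, for exchange between osteoclasts carrying ephrin-B2 and osteoblasts carrying EphB4.

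The libraries held 26757087 to 29461482 counts, so that 1 count was worth 0.0333 to 0.0374 CPM. CPM here means counts scaled to 1e+06 per library, the library total being adjusted by the TMM method, which corrects for differences in RNA composition between libraries. All 168 values of the 21 family genes listed were exact whole numbers, although up to 10.7% of the values in a library were not. Marker genes of the labelled tissue were abundant. The summed CPM of 10 chondrocyte markers lay between 40113 and 156474 over the 8 libraries, and that of 13 osteoblast and osteocyte markers between 47989 and 147506. Collagen genes gave most of these sums, *COL2A1* at 29000 to 117000 CPM in the former and *COL1A1* at 44700 to 144000 CPM in the latter.

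*EPHA6* (gene 100357849), a class A receptor best known from the nervous system, was nearly absent from Perthes femoral heads. It had 27, 112 and 46 counts in control rabbits 1, 2 and 3, or 0.965, 3.95 and 1.53 CPM. In Perthes rabbits 1 to 5 it had 0, 0, 5, 0 and 1 counts, or 0, 0, 0.184, 0 and 0.034 CPM. The groups did not overlap, and the lowest control stood 5.25-fold above the highest Perthes rabbit. Controls averaged 2.15 ± 1.59 CPM (SD, n = 3) and Perthes rabbits 0.0435 ± 0.0797 CPM (SD, n = 5). From the pooled counts, 185 in controls and 6 in Perthes rabbits, the control level was 50.1 times the Perthes level (95% exact Clopper-Pearson interval 22.6 to 138, counting error only). The fitted log2 fold change from control to Perthes was -5.51 (standard error 0.93). A count of 0 allows up to 3 counts, which is 0.101 to 0.112 CPM in the 5 Perthes libraries, so the gene is below detection at this depth in 3 of them and not shown to be absent. The controls themselves spanned 4.09-fold, with rabbit 2 well above the rest.

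**Figure D1:**
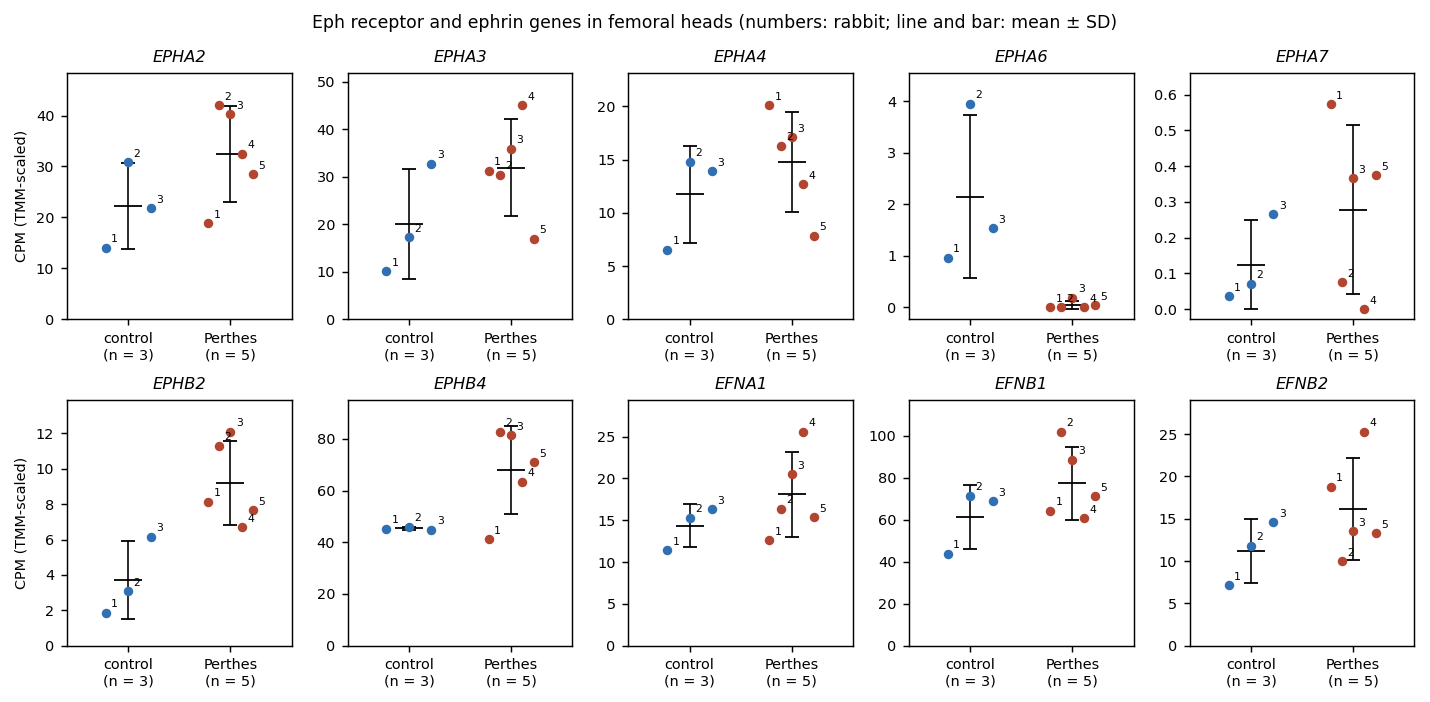
CPM of the 10 Eph receptor and ephrin genes, with a separate linear vertical axis for each gene. Points are rabbits, labelled by number (blue, 3 controls; red, 5 Perthes), and the line and bar are the mean and SD. *EPHA6* is at 0.965 CPM or more in every control and at 0.184 CPM or less in every Perthes rabbit, and *EPHB2* is the only other panel in which the groups are apart.

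In bulk tissue, fewer cells of a type and less RNA per cell cannot be told apart, and this holds for *EPHA6* and for each gene that follows. Between the groups, marker levels of erythroid cells and neutrophils differed in the same direction as *EPHA6*. The summed CPM of 8 erythroid markers was 5763 to 6303 in controls and 657 to 2842 in Perthes rabbits, and 2 of the 8 were called lower by edgeR and 5 by DESeq2, with all 8 at an unadjusted edgeR p below 0.05. That of 9 neutrophil markers was 6830 to 22515 in controls and 28.2 to 1822 in Perthes rabbits. EdgeR called 5 of the 9 lower and DESeq2 all 9, again with all 9 at an unadjusted p below 0.05. Of all 15305 genes, edgeR called 1356 lower and DESeq2 1916, and 2538 were lower at an unadjusted edgeR p below 0.05. Nerve markers were low in both groups, at 16.2 to 24.5 summed CPM over 9 genes in controls and 18.7 to 35.9 in Perthes rabbits. Of these 9, 3 passed the filter on low counts, and 0 of the 3 were called by edgeR or DESeq2 or had an unadjusted edgeR p below 0.05. The highest were *MBP*, *S100B* and *TUBB3*, with means of 9.36, 7.06 and 3.39 CPM in controls and 10.9, 10.6 and 3.41 CPM in Perthes rabbits. The other 6 had means of at most 0.151 CPM in controls, *SNAP25*, *SYT1* and *RBFOX3* among them at 0.0111, 0.0347 and 0 CPM. No gene of the erythroid, neutrophil or nerve lists was at 0 in all 8 libraries. Among controls the order differed, with *EPHA6* lowest in rabbit 1, where the neutrophil sum was highest. Perthes rabbits 2 and 4, with the highest erythroid and neutrophil sums of their group, had 0 *EPHA6* counts. Because a count of 0 allows up to 3 counts, *EPHA6* cannot rank them against rabbit 5, with 1 count. The B cell marker sum overlapped between groups, at 76.2 to 118 CPM in controls and 71.7 to 101 CPM in Perthes rabbits. Of the 8 B cell markers tested, 6 had negative log2 fold changes. The part of these cell types in the *EPHA6* difference was not tested.

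The genes whose profile over the 8 libraries was most like that of *EPHA6* were sought among the other 15304 genes that passed the filter, by the root mean square difference between log2 CPM values, each gene centred on its own mean. This difference was 0.93 for LOC103346181, annotated as a Down syndrome cell adhesion molecule, and 0.94 for LOC100344030, annotated as a cathepsin L1. It was 1.03 for the keratin gene *KRT4* and 1.04 for the serpin gene *SERPINA12*. The median over all genes compared was 2.22. In all 4 genes every control lay above every Perthes rabbit. *KRT4* had 1.82, 3.03 and 2.46 CPM in controls 1 to 3 and 0.27, 0.524, 0.734, 0.291 and 0.238 CPM in Perthes rabbits 1 to 5. LOC103346181 had 1.5, 2.33 and 2.03 CPM in controls and at most 0.337 CPM in a Perthes rabbit. Control rabbit 2 had the highest value in *EPHA6*, LOC103346181, LOC100344030 and *KRT4*, but the lowest control value in *SERPINA12*, at 2.22 CPM. As the 4 genes were picked for their likeness to *EPHA6*, their difference between groups carries no test.

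**Figure D2:**
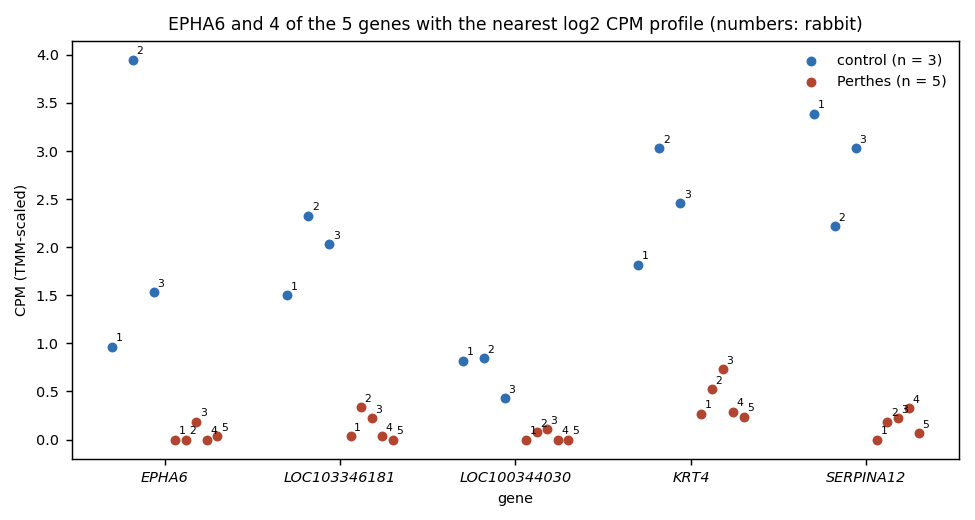
CPM of *EPHA6* and of 4 of the 5 genes with the nearest profile (linear axis), with rabbits as numbered points (blue, 3 controls; red, 5 Perthes). In each gene every control lies above every Perthes rabbit, and CPM values, which are not per length, are not compared between genes.

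Of the other receptors of class A, *EPHA2*, *EPHA3* and *EPHA4* were all expressed at above 6 CPM in every rabbit, and their groups overlapped. *EPHA2* (100343518), a receptor for ephrin-A1, had 14.1, 30.8 and 21.8 CPM in controls 1 to 3 and 18.9, 42, 40.3, 32.5 and 28.5 CPM in Perthes rabbits 1 to 5. Of the Perthes values, 3 exceeded the highest control, and Perthes rabbit 1 was below control rabbit 3. Its log2 fold change was 0.55 (standard error 0.32).

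*EPHA3* (100344496), a receptor with high affinity for ephrin-A5, had 10.1, 17.3 and 32.7 CPM in controls and 31.3, 30.4, 35.9, 45 and 17 CPM in Perthes rabbits. Control rabbits 2 and 3 lay within the Perthes range, and Perthes rabbits 1, 2 and 5 lay within the control range. The controls differed among themselves by 3.23-fold, more than the 1.59-fold ratio between the group means. *EPHA4* (100357064), which binds ephrins of both classes, had 6.54, 14.8 and 13.9 CPM in controls and 20.1, 16.3, 17.1, 12.7 and 7.86 CPM in Perthes rabbits. The values of Perthes rabbits 4 and 5 fell among those of the controls, and the log2 fold change was 0.33 (standard error 0.35), against 0.67 (standard error 0.40) for *EPHA3*.

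*EPHA7* (100344577), a receptor of the developing nervous system, was close to the detection limit. It had 1, 2 and 8 counts in controls and 17, 2, 10, 0 and 11 counts in Perthes rabbits, with 0.574 CPM as the highest value. It was the only one of the 10 genes that the low-count filter removed, so it has no fitted fold change. Its ratio of means, 2.24 for Perthes over control, rests on 1 to 17 counts in the 7 libraries in which it was detected.

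Both class B receptors had higher means in Perthes rabbits. *EPHB2* (100359223), a receptor for ephrin-B ligands with roles in axon guidance and in sorting of cells at tissue borders, had 1.86, 3.07 and 6.15 CPM in controls and 8.14, 11.3, 12.1, 6.69 and 7.66 CPM in Perthes rabbits. All 5 Perthes values lay above the 3 controls, though Perthes rabbit 4 and control rabbit 3 were separated by little. Perthes rabbits averaged 9.18 ± 2.38 CPM (SD, n = 5) and controls 3.69 ± 2.21 CPM (SD, n = 3), which gave a log2 fold change of 1.31 (standard error 0.39). Without control rabbit 3 it was 1.90, and without control rabbit 1 it was 0.99.

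*EPHB4* (100359286), the ephrin-B2 receptor of veins, was the most evenly expressed member in controls, at 45.3, 46 and 44.8 CPM, a coefficient of variation of 1.3%. Perthes rabbits had 41.2, 82.8, 81.4, 63.5 and 71 CPM. Of these 5, 4 stood above every control and Perthes rabbit 1 stood below every control. Perthes rabbits averaged 68 ± 16.9 CPM (SD, n = 5) and controls 45.4 ± 0.591 CPM (SD, n = 3). The fitted log2 fold change was 0.58 (standard error 0.23), and of 0.72 without Perthes rabbit 1.

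The 3 ligands had small differences with overlapping groups. *EFNA1* (100344921), a ligand of EphA2, had 11.4, 15.3 and 16.3 CPM in controls and 12.6, 16.4, 20.5, 25.6 and 15.4 CPM in Perthes rabbits. *EFNB1* (100338775), a ligand with a known part in shaping the skeleton of the skull, had 43.8, 71.5 and 68.8 CPM in controls and 64.4, 102, 88.7, 60.8 and 71.1 CPM in Perthes rabbits. *EFNB2* (100357479), the artery ligand, had 7.15, 11.8 and 14.6 CPM in controls and 18.8, 10, 13.5, 25.3 and 13.3 CPM in Perthes rabbits. In each of the 3, control rabbit 1 was the lowest of the 8. The log2 fold changes were 0.34 (standard error 0.25), 0.33 (standard error 0.24) and 0.53 (standard error 0.34).

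The ratio of *EPHB4* to *EFNB2* counts within a library does not depend on how libraries are scaled. It was 6.34, 3.89 and 3.08 in controls 1 to 3 and 2.19, 8.25, 6.02, 2.51 and 5.34 in Perthes rabbits 1 to 5, with means of 4.44 ± 1.7 (SD, n = 3) and 4.86 ± 2.54 (SD, n = 5). The Perthes rabbits with the highest *EFNB2*, rabbits 1 and 4, had the lowest *EPHB4*, and rabbit 2, with the lowest *EFNB2*, had the highest *EPHB4*. The ratio of *EPHB2* to *EFNB1* was 0.0424, 0.0429 and 0.0894 in controls and lay between 0.108 and 0.137 in Perthes rabbits, without overlap. The ratio of *EPHA2* to *EFNA1* was 1.24 to 2.01 in controls and 1.27 to 2.55 in Perthes rabbits.

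Across all 15305 genes tested by edgeR's quasi-likelihood test, 15.1% had an adjusted p below 0.05, 6.21% being higher and 8.86% lower in Perthes rabbits. A gene past this threshold is referred to as called. Of the 9 members tested, 0 were called higher and 1, *EPHA6*, was called lower. The call of *EPHA6* was lost without control rabbit 2, at a log2 fold change of -4.73, and under a block on replicate number, at -5.12. In both of these fits edgeR called 0 genes over the whole table. At an unadjusted p below 0.05 there were 1624 higher and 2098 lower genes in the first and 1504 and 1648 in the second. Without Perthes rabbit 3 the log2 fold change of *EPHA6* was -7.35. At an unadjusted p below 0.05, 2 of the 9 were higher, and DESeq2 called 1 of these, *EPHB2*, higher. The groups did not overlap in 11.2% of all genes with higher and in 13.9% with lower values in Perthes rabbits. Among the members this held for *EPHB2* and *EPHA6* respectively. Because the members were chosen on this contrast, nothing is read from their counts. The median log2 fold change was 0.53 over the 9 members and 0.02 over all genes.

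**Figure D3:**
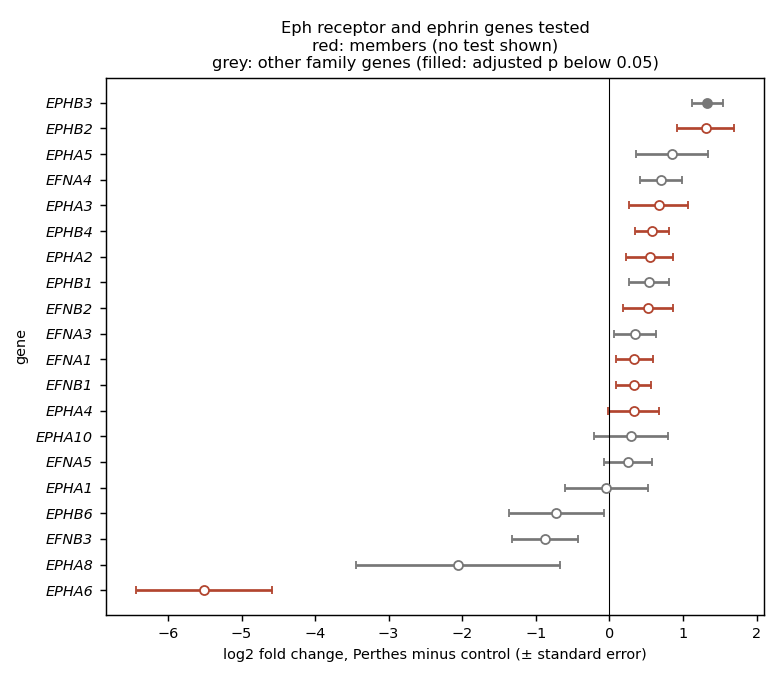
Fitted log2 fold change, Perthes minus control, with its standard error, for the 20 Eph receptor and ephrin genes that passed the low-count filter (red, the members, with no test shown; grey, the other family genes, filled where the edgeR adjusted p was below 0.05). *EPHA6* lies at -5.51, and the positive values run up to 1.33 in *EPHB3*.

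The rest of the family was tested next, with 11 genes outside the members listed and all 11 past the filter. Of these, 1 was called higher and 0 were called lower by edgeR, or 9.09% against 15.1% of all genes. At an unadjusted p below 0.05, 2 were higher and 0 lower, and DESeq2 also called 1 higher and 0 lower. Over all 15305 genes, 2345 were higher and 2538 lower at an unadjusted p below 0.05, and DESeq2 called 1720 higher and 1916 lower. *EPHB3* (100347330), a class B receptor known for positioning cells in the gut lining, rose in Perthes rabbits. It had 12.5, 16.4 and 23.6 CPM in controls 1 to 3 and 41.1, 42.2, 48.9, 45.3 and 42.4 CPM in Perthes rabbits 1 to 5. All 5 Perthes rabbits lay above all controls and within 1.19-fold of each other. Perthes rabbits averaged 44 ± 3.17 CPM (SD, n = 5) and controls 17.5 ± 5.63 CPM (SD, n = 3). The difference of 1.33 on the log2 scale had a standard error of 0.21 and an edgeR adjusted p of 0.0122. Without control rabbit 2, where edgeR called 0 genes over the whole table, this adjusted p was 0.0530.

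*EFNA4* (103350046) was also apart between groups, at 1.04 to 1.55 CPM in controls and 1.59 to 2.73 CPM in Perthes rabbits, but did not pass the test (log2 fold change 0.70, edgeR adjusted p = 0.138). *EPHA5* (100345523) had 1.21, 2.29 and 4.69 CPM in controls and 4.56, 5.06, 2.79, 8.51 and 3.74 CPM in Perthes rabbits, with an adjusted p of 0.261 from edgeR. *EPHB1* (100348083) had 1.64, 2.75 and 2.83 CPM in controls and 2.6 to 3.95 CPM in Perthes rabbits, with an adjusted p of 0.206. The groups overlapped in both *EPHA5* and *EPHB1*. *EFNA5* (100358004) and *EFNA3* (100358959), the latter a neighbour of *EFNA4* in the RefSeq annotation, had log2 fold changes of 0.25 and 0.35, with adjusted p-values of 0.638 and 0.439.

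Negative fold changes were seen in 4 of the 11 genes, and 0 of them passed the test. *EPHB6* (100340354), a receptor without kinase activity, had 23, 10.6 and 9.45 CPM in controls and 1.52, 9.02, 10.2, 18.4 and 4.39 CPM in Perthes rabbits. Its Perthes values spanned 12.1-fold, and the log2 fold change of -0.72 had a standard error of 0.65. *EFNB3* (100352864) had 1.32, 2.5 and 1.16 CPM in controls and 0.477 to 1.42 CPM in Perthes rabbits, with an adjusted p of 0.217 from edgeR. *EPHA8* (100338073) had 85, 54 and 0 counts in controls and 0, 39, 9, 5 and 0 counts in Perthes rabbits. Its log2 fold change of -2.06 had a standard error of 1.39. *EPHA1* (100338483), at 0.176 to 0.728 CPM, had a log2 fold change of -0.04. *EPHA10* (100353815), matched through its gene identifier, lay at 0.27 to 1.42 CPM with a log2 fold change of 0.29. *EFNA2* was not analysed here.

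**Figure D4:**
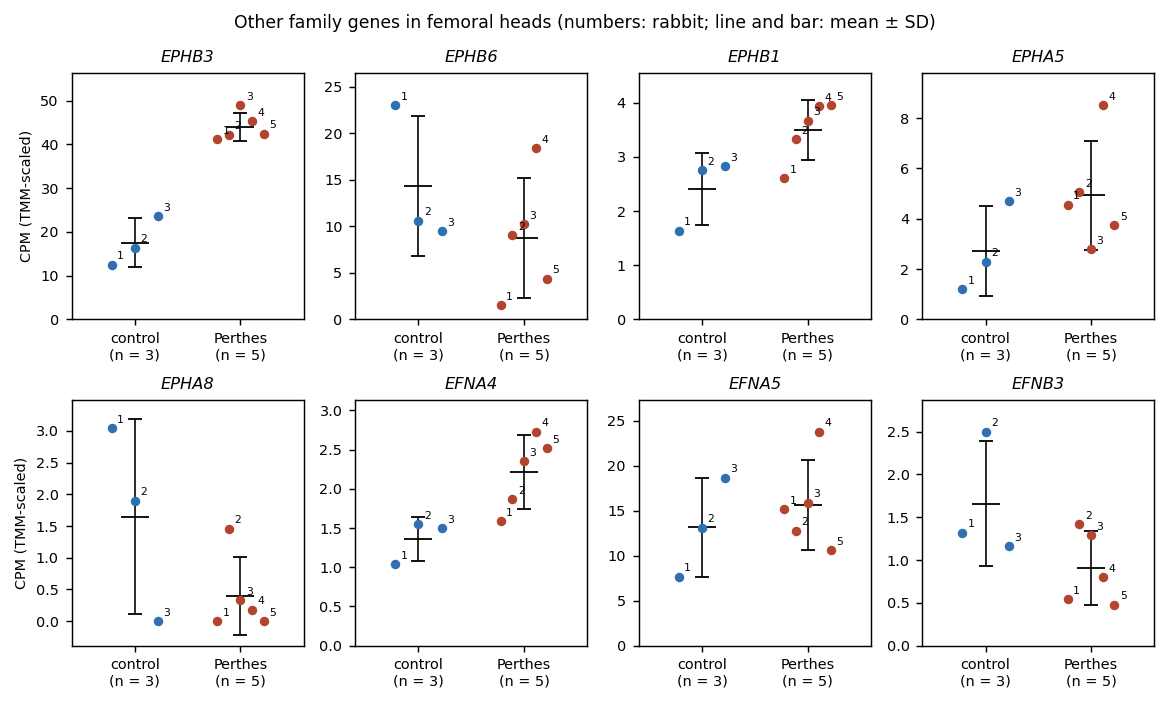
CPM of 8 family genes outside the members, with a separate linear vertical axis for each gene. Points are rabbits, labelled by number (blue, 3 controls; red, 5 Perthes), and the line and bar are the mean and SD. The Perthes rabbits lie between 41.1 and 48.9 CPM in *EPHB3*, above all controls, and spread from 1.52 to 18.4 CPM in *EPHB6*.

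Positive log2 fold changes were found in 7 of the 11 other family genes and in 8 of the 9 members, which were chosen on these values, or in 15 of 20 in all. The share over all genes was 51.6%. When libraries were scaled by their totals only, the count was again 15 of 20, while the share of all genes was 45.9%. Nothing is read from the excess, to which the members contribute most. By class, positive values were found in 5 of 8 EphA receptors, 4 of 5 EphB receptors, 4 of 4 ephrin-A ligands and 2 of 3 ephrin-B ligands.

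The order of the rabbits within a group was also examined. In controls, rabbit 1 had the lowest value in 14 of the 20 genes (70% of the family, 41.6% of all genes). In 8 of the 20, rabbit 1 was lowest and rabbit 3 highest, with rabbit 2 between them (40% of the family, 26.9% of all genes). Those 8 were *EPHA3*, *EPHA5*, *EPHB1*, *EPHB2*, *EPHB3*, *EFNA1*, *EFNA5* and *EFNB2*. The summed CPM of 10 fibroblast and marrow stroma markers had the same order, at 1962, 3756 and 9204 in controls 1, 2 and 3. Of this, *COL3A1* gave 780, 1630 and 6750. The sum of 7 skeletal muscle markers had that order too, at 3.32, 4.41 and 21.3 CPM. In the Perthes group, the stroma sum was highest in rabbit 1, at 26106 CPM. That rabbit had the lowest value in 10 of the 20 genes (50% of the family, 30.7% of all genes). It had the highest value in 1 (5% of the family, 28.7% of all genes). Among Perthes rabbits, rabbit 4 had the highest value in 9 of the 20 genes (45% of the family, 21.8% of all genes), *EPHA3*, *EPHA5*, *EFNA1*, *EFNA5* and *EFNB2* among them. That rabbit also had the highest chondrocyte marker sum, 156474 CPM, against 40113 to 82649 in the other 4.

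Summed levels of several marker lists were higher in Perthes rabbits, as were *EPHB2* and *EPHB3*, though not all genes of a list moved together. The fibroblast and marrow stroma sum was 14879 to 26106 CPM in Perthes rabbits and 1962 to 9204 in controls, and 3 of its 10 genes were called higher. Most of this sum was the collagen gene *COL3A1*, which averaged 3050 ± 3230 CPM in the 3 controls and 15500 ± 3540 CPM in the 5 Perthes rabbits (SD). The marrow stroma genes *CXCL12*, *LEPR* and *KITLG* had negative log2 fold changes of -1.39, -0.65 and -0.31, none of them called. The sum of 9 mural and smooth muscle markers was 1063 to 1539 CPM against 532 to 844, with 2 of 9 called higher. For the endothelium, where *EFNB2* and *EPHB4* are best known, the sum of 19 markers was 885 to 1410 CPM in Perthes rabbits and 790 to 987 in controls, with 1 called higher and 2 lower. Of the 19, 10 had negative log2 fold changes, with a median of -0.07. The 1 called higher was *STAB1*, which macrophages also express, at a mean of 489 CPM in Perthes rabbits and 170 CPM in controls. It was the most abundant of the 19, at 154 to 651 CPM in Perthes rabbits and 115 to 216 CPM in controls. The higher sum therefore does not show a higher level of the endothelial list as a whole. The macrophage sum lay at 454 to 1511 CPM in Perthes rabbits and 546 to 683 in controls, with 4 of 10 genes called higher and 3 lower. The osteoclast sum was 3187 to 6232 CPM against 1854 to 2912, with 2 of 10 called higher. Its most abundant gene, *CTSK*, averaged 2390 CPM in Perthes rabbits and 672 CPM in controls. For all of these lists, the share called over all genes was 15.1%. No listed gene of these lists was at 0 in all libraries, and the part of these cell types in the Eph and ephrin differences was not tested.

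**Figure D5:**
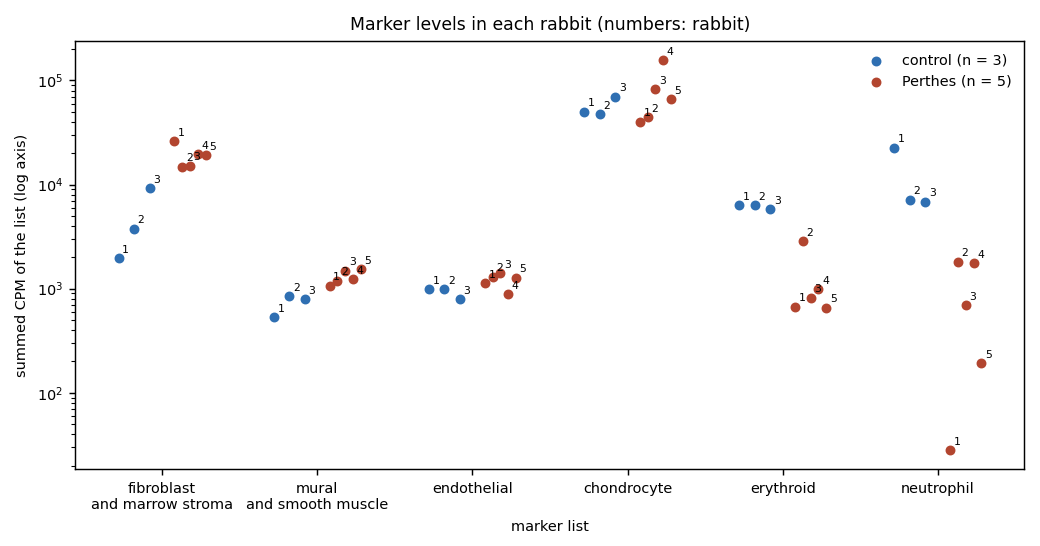
Summed CPM of 6 marker lists in each rabbit on a log axis (blue, 3 controls; red, 5 Perthes; numbers name the rabbit). The fibroblast and marrow stroma sums of Perthes rabbits, from 14879 CPM, lie above those of controls, up to 9204 CPM, and the erythroid and neutrophil sums lie below.

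Of the remaining lists, edgeR called 0 of 12 osteoblast and osteocyte, 0 of 9 chondrocyte, 0 of 4 skeletal muscle and 0 of 3 epithelial markers. At an unadjusted p below 0.05 these counts were 2, 3, 1 and 1, and DESeq2 called 1, 0, 0 and 1. Among all 15305 genes, 2345 were higher and 2538 lower at that unadjusted threshold, and DESeq2 called 1720 higher and 1916 lower. Of 8 B cell markers, 1 was called lower.

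The proteins that carry Eph signals into the cell were listed as 57 genes, of which 55 were found and tested. Of these, 2 were called higher and 2 lower, or 7.27% against 15.1% of all genes, and the median log2 fold change was 0.12. *SDCBP* (100346612), encoding syntenin, which binds the tail of ephrin-B proteins, averaged 95.3 ± 1.4 CPM in controls (SD, n = 3). It rose in Perthes rabbits to 317 ± 141 CPM (SD, n = 5), or by 1.73 on the log2 scale (edgeR adjusted p = 0.0190). *FYN* (100339741), a Src family kinase, rose from 45.9 ± 4.87 to 89.5 ± 27.4 CPM, with a log2 fold change of 0.96 (adjusted p = 0.0446). *ADAM10* (100101614), a membrane protease that sheds ephrins, fell from 183 ± 28.5 to 101 ± 19.7 CPM, with a log2 fold change of -0.86 (adjusted p = 0.0228). *ACP1* (100354330), a phosphatase that can remove phosphate from Eph receptors, fell from 30.8 ± 2.55 to 18.8 ± 3.88 CPM, with a log2 fold change of -0.72 (adjusted p = 0.0345). In all 4 genes the groups did not overlap. Each of the 8 rabbits was left out in turn. *SDCBP* lost its call in 2 cases, *ADAM10* in 5, and *FYN* and *ACP1* in 6 each. The highest edgeR adjusted p-values were 0.0781, 0.0940, 0.148 and 0.0967 in that order. Log2 fold changes kept their sign, at 0.84 to 1.11 for *FYN*, -0.98 to -0.79 for *ADAM10* and -0.83 to -0.64 for *ACP1*. *SDCBP* lost its call without control rabbit 1 (1.74) and without control rabbit 2 (1.72). Calls over all genes were then 73 higher and 184 lower, and 0 and 0 (1624 and 2098 at an unadjusted p below 0.05). Without control rabbit 3, where *FYN*, *ACP1* and *ADAM10* lost their calls, they were 695 and 1183.

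Other guidance systems, the semaphorins, plexins, neuropilins, netrins, slits and their receptors, were listed as 54 genes, of which 53 were found and 48 tested. Of these, 5 were called higher and 2 lower, or 14.6% against 15.1% of all genes, with a median log2 fold change of 0.05. The lowest adjusted p-values among the higher genes were those of *PLXNA1* (100358783), *PLXNB2* (103346036) and *NTN4* (100356958). The plexin receptor gene *PLXNA1* averaged 53.7 ± 9.43 CPM in controls (SD, n = 3). It rose in Perthes rabbits to 123 ± 17.3 CPM (SD, n = 5), or by 1.19 on the log2 scale (edgeR adjusted p = 0.0122). *PLXNB2* and the netrin gene *NTN4* rose by 0.70 and 1.43 on the log2 scale (adjusted p = 0.0264 and 0.0332). The semaphorin receptor gene *PLXNC1* (100346617) fell from 81.5 ± 38.5 to 25.6 ± 9 CPM, a log2 fold change of -1.67 (adjusted p = 0.0158), and *SEMA4B* (100346924) fell from 174 ± 56.9 to 38.9 ± 26.9 CPM, a log2 fold change of -2.16 (adjusted p = 0.0242). When each of the 8 rabbits was left out in turn, *PLXNA1* lost its call in 1 case, *PLXNC1* in 2, *SEMA4B* in 4, and *PLXNB2* and *NTN4* in 5 each, with adjusted p-values of up to 0.0519, 0.0657, 0.0971, 0.0940 and 0.0959. One of these cases, for all 5 genes, was control rabbit 2, without which edgeR called 0 genes in the whole table, with 1624 higher and 2098 lower at an unadjusted p below 0.05. Their log2 fold changes were then 1.21 for *PLXNA1*, 0.76 for *PLXNB2*, 1.52 for *NTN4*, -1.81 for *PLXNC1* and -2.18 for *SEMA4B*.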

How the data were processed

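Total RNA depleted of ribosomal RNA was made into directional libraries and sequenced as 150 bp pairs. The authors filtered reads with SOAPnuke, used HISAT2 2.0.4 for mapping, and RSEM 1.1.17 with HTSeq 1.99.2 for quantification, and deposited expected counts per gene, not normalized. Another 8 columns repeat the 8 used and were left out, and the small RNA table was not used.

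Counts were rounded to whole numbers, filtered with filterByExpr by group, scaled by TMM and tested with edgeR 4.0.16 (quasi-likelihood F-test, R 4.3.3) over 15305 genes of 5 Perthes and 3 control rabbits, with Benjamini-Hochberg adjustment and a threshold of 0.05. The standard error is the log2 fold change divided by the square root of F. Log2 CPM used a prior count of 2. The method was tested on simulated counts. Library totals of 26757087 to 29461482 counts limited precision mainly for *EPHA6*, *EPHA7*, *EPHA1* and *EPHA8*. Floors and intervals cover counting error only, since reads carry no molecular identifiers. Nothing in the labels ties a library to a batch. Control rabbit 3 carries this number in its code and 2 in its title.

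The members and gene lists were chosen with earlier results of these data known. Named were all listed family genes, the 3 called genes per direction with the lowest adjusted p in the signal and guidance lists, and the 5 genes nearest to *EPHA6*, of which 1 is not reported here. Nerve, stroma and endothelial markers were named after their values were seen. Genes were matched by symbol, or by identifier to RefSeq assembly mOryCun1.1, which found 257 of 277 list entries. No protein or promoter sequences are printed. Alternatives were DESeq2 1.42.0, other scalings, filters and thresholds (the study's being an absolute log2 difference of 2 at a false discovery rate of 1e-05), a block on replicate number, and fits without single rabbits.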

Additional observations from a re-analysis of the deposited data

Results flagged for a closer look

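Within the Perthes group, 1 rabbit stood far from the other 4 in 3 of the 21 family genes examined. The rule was Dixon's test at the 95% level, which flags about 1 in 20 groups by chance when values are normally distributed. Counts in these 3 genes were low, where that rate need not hold, so nothing is read from the number flagged. In *EPHA6*, Perthes rabbit 3 had 0.184 CPM, from 5 counts, where the others had at most 0.034 CPM. In *EPHA1*, Perthes rabbit 4 had 0.728 CPM and the others 0.187 to 0.338 CPM. In *EPHA8*, Perthes rabbit 2 had 1.46 CPM and the others 0 to 0.33 CPM.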

How the results depend on the processing

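Over all genes, DESeq2 called 1720 higher and 1916 lower, against 951 and 1356 for edgeR, and with library totals alone the counts were 678 and 1705. *EPHA6* kept its direction in every alternative that tested it. It was not called without control rabbit 2, under the replicate block or at the study's thresholds in edgeR, and a minimum of 10 counts in every library removed it, leaving 0 members called lower. DESeq2 called 1 member higher, *EPHB2*. The counts higher and lower under DESeq2 were 5 and 4 for the signal transduction list and 9 and 5 for the guidance list. With library totals alone, 1 signal transduction gene and 3 guidance genes were called higher, 0.88 being the log2 fold change of *FYN*, which lost its call. A log2 fold change beyond 1 left 645 higher and 1028 lower genes over the whole table. In the lists it left 1 higher and 0 lower signal transduction genes and 2 higher guidance genes. The lower guidance genes *PLXNC1* and *SEMA4B* also passed it. At the study's thresholds, edgeR called 0 genes higher and 0 lower (2345 and 2538 at an unadjusted p below 0.05), and so 0 in every list. DESeq2 at those thresholds, an alternative added after the data were seen, called 105 and 95, *EPHA6* among them. It called 0 of the other family, signal transduction and guidance genes. For deviations from the group means, correlations between rabbits of the same number were -0.317, 0.161 and -0.238. Those between rabbits of different number ran from -0.314 to 0.435. These few values show no sign of pairing but cannot settle whether the replicate numbers pair the rabbits. Under a replicate block, 0 genes were called higher and 0 lower (1504 and 1648 at an unadjusted p below 0.05), in all genes and in every list, and *EPHB3* had a log2 fold change of 1.38. When each rabbit was left out in turn, calls over all genes lay between 0 and 1267 for higher and between 0 and 1628 for lower levels, both being 0 without control rabbit 2 (1624 and 2098 at an unadjusted p below 0.05). Of the members, 0 to 1 were higher (*EPHB4* without Perthes rabbit 1, *EPHB2* without Perthes rabbit 4 or control rabbit 3) and 0 to 1 lower. The other family genes ranged from 0 to 1 higher, the signal transduction list from 0 to 4 in both directions, and the guidance list from 0 to 5 higher and 0 to 4 lower. The log2 fold change of *EPHA6* ranged from -7.35 without Perthes rabbit 3 to -4.73 without control rabbit 2. Changes of sign were seen in 3 family genes near 0. *EPHA1* was at 0.12 without Perthes rabbit 2, 0.12 without Perthes rabbit 5 and 0.51 without control rabbit 3 (lowest -0.37), *EPHA10* at -0.11 without Perthes rabbit 2 (highest 0.50), and *EFNA5* at -0.02 without control rabbit 1 (highest 0.59). The causes were not tested. The alternatives for single genes outside the members were added after the data were seen. Depth limited *EPHA6*, *EPHA7* and *EPHA8*, where 1 count is a large step, and with 3 controls every call rested on few rabbits.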

Other observations

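*EPHB6* and the neutrophil marker sum were set side by side after their values were seen. Among controls, both were highest in rabbit 1, at 23 CPM for *EPHB6* and 22515 CPM for the sum, and both were lowest in rabbit 3, at 9.45 and 6830 CPM. Among Perthes rabbits, both were lowest in rabbit 1, at 1.52 and 28.2 CPM, and next lowest in rabbit 5, at 4.39 and 193 CPM. *EPHB6* was highest in Perthes rabbit 4, at 18.4 CPM, and the marker sum there was 1756 CPM, close to the 1822 CPM of rabbit 2. In rabbit 2, *EPHB6* was at 9.02 CPM, below the 10.2 CPM of rabbit 3, where the sum was 697 CPM. The erythroid marker sum had the same order in controls, at 6303, 6293 and 5763 CPM. It was also lowest in Perthes rabbits 1 and 5, at 673 and 657 CPM, against 2842, 817 and 991 CPM in rabbits 2 to 4. The control and Perthes ranges of *EPHB6* overlapped, whereas those of both sums did not.

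The gene table's own annotation assigns 23 genes to ephrin receptor signaling, 19 of them members of the family. The other 4 were all tested, and 0 of them were called by edgeR or DESeq2 or had an unadjusted edgeR p below 0.05. They had 1 positive and 3 negative log2 fold changes. Over all 15305 genes, edgeR called 15.1%, and DESeq2 called 1720 higher and 1916 lower. At an unadjusted edgeR p below 0.05, 2345 were higher and 2538 lower. With 4 genes, nothing is read from the 0 calls.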
